A study of Mus musculus with 6 samples.

Results

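Hyaluronan genes were examined in the lungs of 6 male C57BL6 mice, 10 weeks old, in which endotoxin shock had been set off by an intraperitoneal dose of lipopolysaccharide (LPS) at 20 mg/kg after 16 h of starvation. At 3 h and 24 h after LPS, recombinant antithrombin (750 IU/kg) was given to 3 of the mice and saline to the other 3, and lung RNA was taken at 30 h. Each label names its own mouse, each mouse was measured on 1 one-colour Agilent array, and no mouse without LPS was analysed here, so all values compare antithrombin with saline under endotoxin. The 8 genes were chosen by name, and a probe was taken for a gene when its RefSeq transcript belonged to that gene. The 8 genes had 11 probes, the brightest probe stood for each gene, and all 8 passed the filter on dim probes, out of 32456 genes and unnamed probes tested.

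Hyaluronan is a long unsulfated sugar polymer that synthases in the plasma membrane make from UDP-sugars and extrude into the matrix and onto the vascular glycocalyx. Cell-surface and lysosomal hyaluronidases cut it to fragments, and receptors on leukocytes and lymphatic vessels bind it. In injured lung it is known for binding water in the interstitium and for holding leukocytes. Antithrombin binds heparan sulfate, another sugar of the same glycocalyx.

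The data show a synthase and a hyaluronidase that differed in opposite directions, at unadjusted p-values. Has2, the synthase of long hyaluronan chains, was 3.04-fold higher after antithrombin, and Hyal2, which cuts long chains at the cell surface, was 1.47-fold lower. In both genes the 3 antithrombin mice lay beyond the 3 saline mice, while the groups did not overlap for 28.9% of all genes tested (10.7% with antithrombin above and 18.1% with antithrombin below). Neither passed the adjusted threshold of 0.05 (limma, adjusted p = 0.157 for Has2 and 0.17 for Hyal2). Of the 8 genes, 0 passed after adjustment over all genes tested, against 0.00616% of those genes. At an unadjusted p under 0.05, 1 of 8 was higher and 1 was lower (limma), against 8.73% and 12.9% of all genes tested, or 21.6% in both directions, so the 2 of 8 are near the background share. The difference was positive for 6 of the 8, with a median of 0.23 on the log2 scale, while 43% of all genes tested had a positive difference and their median was -0.05.

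All levels below are processed signals on a log2 scale, set relative to the 75th percentile of their own array, so 0 is the signal that 75% of non-control probes on the array fall below. Levels are compared between mice for the same probe and not between genes, since probes differ in brightness. Differences are antithrombin minus saline on this log2 scale, and intervals and standard errors (SE) come from the fit across all genes.

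**Figure D1:**
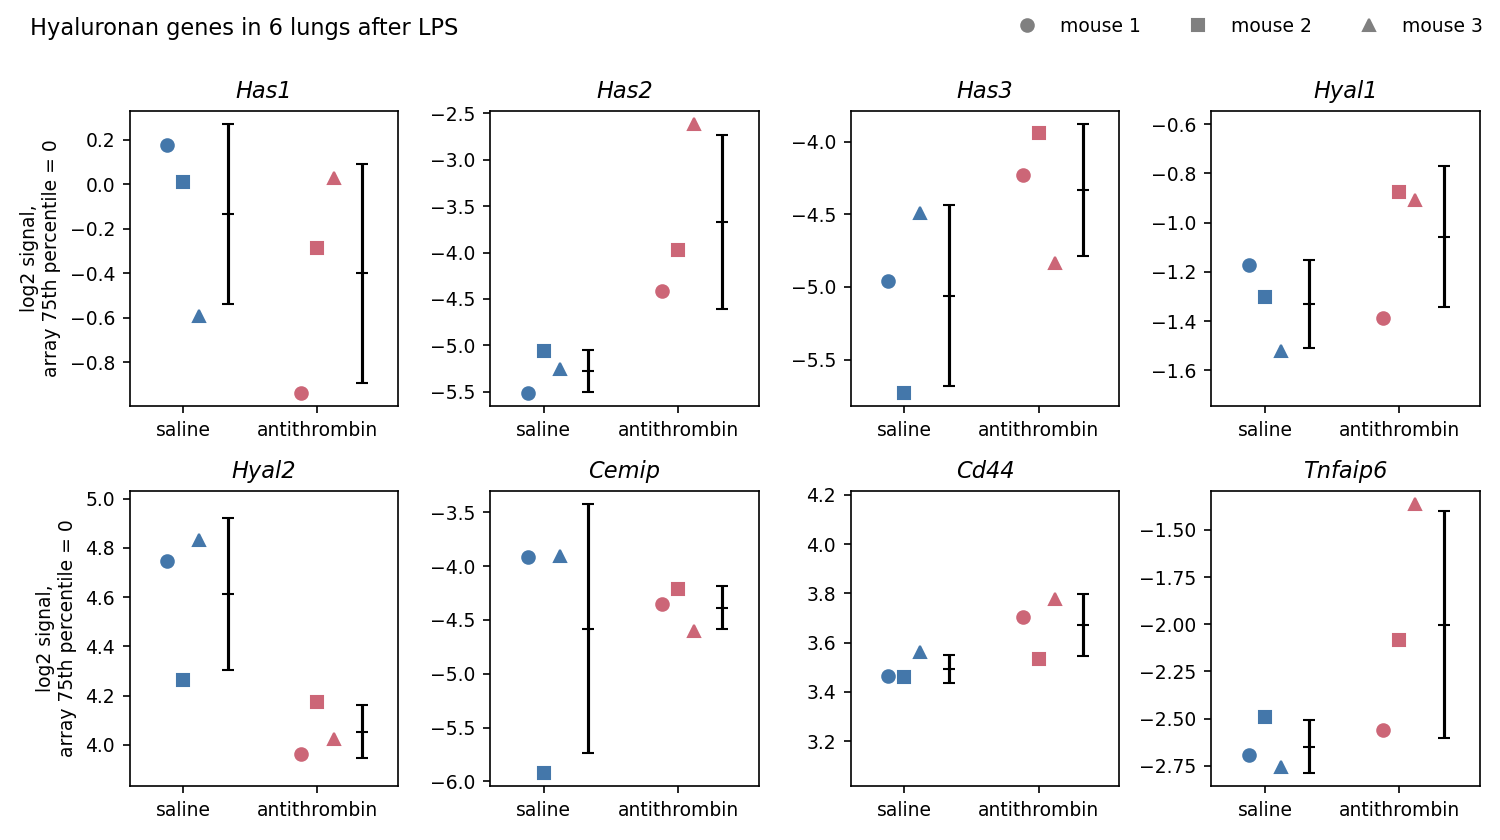
Levels of the 8 hyaluronan genes by mouse, with log2 signal relative to the array's 75th percentile on the y axis and 1 panel per gene. Circles, squares and triangles are mice 1, 2 and 3 of each group, and bars are mean ± SD (n = 3). The groups part without overlap for Has2 and Hyal2 and overlap for the other 6 genes.

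The 3 synthases Has1, Has2 and Has3 gave 3 different patterns. Has2 (probe A_51_P213359) stood at -5.51, -5.06 and -5.25 in saline mice 1, 2 and 3. It stood at -4.41, -3.98 and -2.62 in antithrombin mice 1, 2 and 3. The saline mice lay close together, and the antithrombin mice all lay above them but were spread widely, with antithrombin mouse 3 far above the other two. The difference was 1.61 (SE 0.44, 95% interval 0.56 to 2.65, limma, unadjusted p = 0.00856), from a mean of -5.28 ± 0.23 (SD, n = 3) in saline to -3.67 ± 0.94 (SD, n = 3). Without antithrombin mouse 3 the difference was 1.08.

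Has2 was a dim transcript. Its processed signal, in scanner units, was 18.5, 22.3 and 18.5 in saline mice 1, 2 and 3 and 39.9, 52.1 and 129 in the antithrombin mice, where the 75th percentile of the arrays lay between 705 and 850. The Has2 probe was well above background on all 6 arrays. With normexp background correction, which adds an offset of 50 to each signal, the Has2 difference was 0.58 (SE 0.24, limma, adjusted p = 0.196).

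Has1 (probe A_51_P492456), a synthase known from fibroblasts and mesothelium, stood at 0.18, 0.01 and -0.59 in saline mice 1, 2 and 3 and at -0.94, -0.29 and 0.03 in the antithrombin mice. The groups overlapped almost wholly, with an antithrombin mouse at the bottom of the range and a saline mouse at the top. The difference was -0.27 (SE 0.30, 95% interval -0.98 to 0.45, limma, adjusted p = 0.614). Without antithrombin mouse 1 it was 0.0038.

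Has3 (probe A_51_P398868), known for making shorter chains, stood at -4.96, -5.73 and -4.49 in saline mice 1, 2 and 3. The antithrombin mice stood at -4.23, -3.94 and -4.83. Antithrombin mouse 3, the highest mouse for Has2, was the lowest of its group for Has3 and lay below saline mouse 3. The difference was 0.73 (SE 0.36, 95% interval -0.12 to 1.57, limma, adjusted p = 0.279), and it was 0.14 with normexp correction and 0.39 without saline mouse 2.

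The hyaluronidases Hyal2 and Hyal1 are encoded side by side on chromosome 9, with Hyal3 beyond the neighbouring gene Naa80. Hyal2 is anchored to the cell surface and makes the first cuts, and Hyal1 works in lysosomes on the fragments. Their promoters are shown because the 2 adjacent genes differed in sign. Each line gives the 250 bases before the transcription start from RefSeq, on GRCm38.p6, plus strand, at chr9:107568913-107569162 for Hyal2 and chr9:107576700-107576949 for Hyal1. Capitals mark matches, on either strand, to the GC box GGGCGG, the CCAAT box, the TATA box TATAAA, the AP-1 site TGANTCA or the NF-kB consensus.

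Hyal2: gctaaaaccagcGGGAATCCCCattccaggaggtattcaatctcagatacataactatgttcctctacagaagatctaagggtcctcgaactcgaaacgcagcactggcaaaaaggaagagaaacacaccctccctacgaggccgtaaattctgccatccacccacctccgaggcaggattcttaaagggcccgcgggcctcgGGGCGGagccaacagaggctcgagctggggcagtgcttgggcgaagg

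Hyal1: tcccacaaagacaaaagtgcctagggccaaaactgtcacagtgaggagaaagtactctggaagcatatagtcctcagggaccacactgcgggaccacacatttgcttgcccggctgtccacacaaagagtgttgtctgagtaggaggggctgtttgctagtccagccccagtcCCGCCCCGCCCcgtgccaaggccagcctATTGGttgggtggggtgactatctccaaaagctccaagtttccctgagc

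The Hyal2 window holds 1 NF-kB match, which begins 238 bases before the start, and 1 GC box. The Hyal1 window holds 2 GC boxes, which overlap, and 1 CCAAT box. Over 32851 RefSeq promoter windows of the same length, 7.25% hold the NF-kB consensus, 32.7% the GC box and 33.8% the CCAAT box. The matches describe letters in these windows and were not tested for binding. RefSeq promoters were matched for 6 of the 8 genes, not for Has2 and Has3.

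Hyal2 (probe A_51_P284577) stood at 4.75, 4.26 and 4.83 in saline mice 1, 2 and 3 and at 3.96, 4.17 and 4.02 in the antithrombin mice. The antithrombin mice lay close together below the saline mice, and saline mouse 2 came close to antithrombin mouse 2. The difference was -0.56 (SE 0.17, 95% interval -0.97 to -0.15, limma, unadjusted p = 0.015), from a mean of 4.61 ± 0.31 (SD, n = 3) in saline to 4.05 ± 0.11 (SD, n = 3). Without saline mouse 2 it was -0.73 and passed the adjusted threshold (limma, adjusted p = 0.0297, where the alternatives ran from 0.0297 to 0.379). Without that mouse 11% of all genes tested passed too, against 0.00616% with it.

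Hyal1 (probe A_51_P479408) stood at -1.17, -1.30 and -1.52 in saline mice 1, 2 and 3 and at -1.39, -0.88 and -0.91 in the antithrombin mice. Antithrombin mice 2 and 3 lay above the saline mice and antithrombin mouse 1 lay among them. The difference was 0.27 (SE 0.18, 95% interval -0.15 to 0.69, limma, adjusted p = 0.387). It was 0.44 without antithrombin mouse 1 (limma, unadjusted p = 0.029, adjusted p = 0.291) and 0.18 without saline mouse 3. Hyal3, the neighbour beyond Naa80, differed by -0.15 (SE 0.23, limma, adjusted p = 0.707). The 3 neighbouring genes thus had differences of -0.56, 0.27 and -0.15, and the intervals of Hyal1 and Hyal3 include 0.

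Cemip encodes a hyaluronan-binding protein needed for depolymerisation by fibroblasts, apart from the hyaluronidases. Its brighter probe (A_51_P456113) stood at -3.92, -5.92 and -3.91 in saline mice 1, 2 and 3 and at -4.35, -4.21 and -4.60 in the antithrombin mice. Saline mouse 2 was far below the other 5 mice, while saline mice 1 and 3 were above all antithrombin mice. The difference was 0.19 (SE 0.53, 95% interval -1.07 to 1.46, limma, adjusted p = 0.845). Without saline mouse 2 it was -0.48 (limma, adjusted p = 0.09). The other Cemip probe (A_55_P2069659), well above background on 5 of 6 arrays, gave -0.70 (SE 0.35), so the 2 probes differed in sign and these data give no direction for Cemip.

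**Figure D2:**
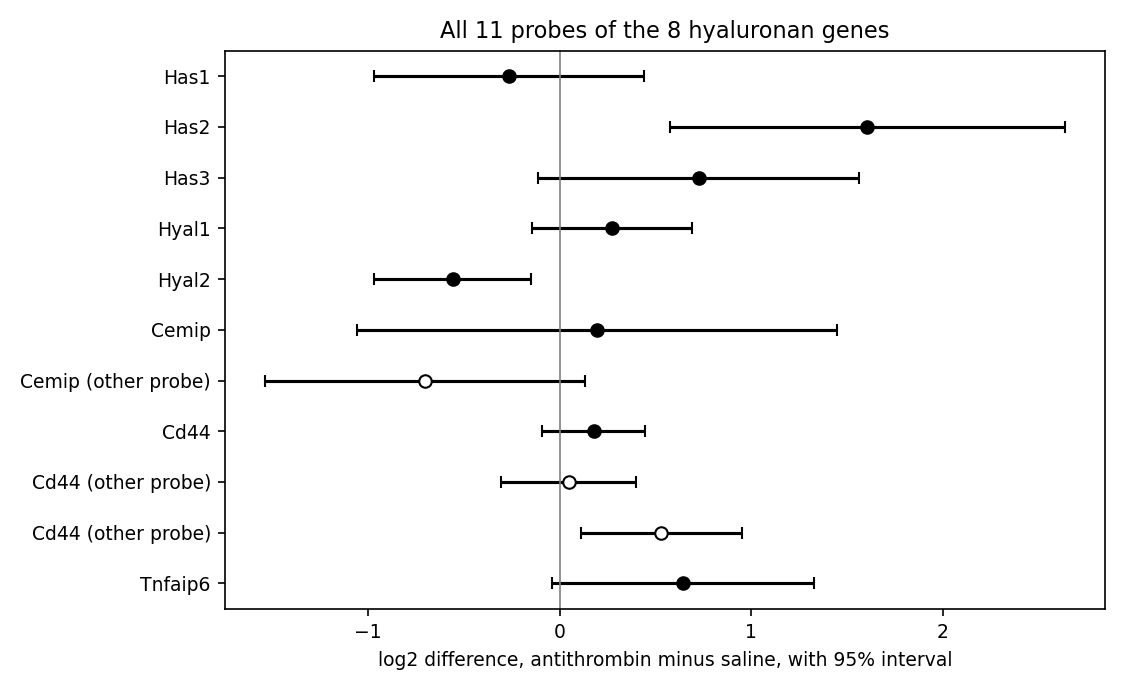
Log2 difference, antithrombin minus saline, on the x axis for all 11 probes of the 8 genes, with 95% intervals from a fit of all probes singly. Filled points are the probes that stand for their gene and open points the other probes. The intervals lie above 0 for Has2 and 1 open Cd44 probe and below 0 for Hyal2.

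Cd44 encodes the main hyaluronan receptor of leukocytes, on which rolling cells hold to the glycocalyx. The brightest probe (A_55_P2912261) stood at 3.46, 3.46 and 3.56 in saline mice 1, 2 and 3 and at 3.70, 3.53 and 3.78 in the antithrombin mice. The groups touched, with antithrombin mouse 2 just below saline mouse 3. The difference was 0.18 (SE 0.11, 95% interval -0.09 to 0.44, limma, adjusted p = 0.378), the narrowest interval among the 8 genes.

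Cd44 is spliced into many forms, and 3 probes were matched to its transcript. The second probe (A_55_P2166501) differed by 0.05 (SE 0.15). The third and dimmest (A_55_P2166488) stood at -2.83, -2.37 and -2.76 in saline mice 1, 2 and 3 and at -2.30, -2.20 and -1.86 in the antithrombin mice. The groups did not overlap for the dimmest probe, which differed by 0.53 (SE 0.18, limma with probes tested singly, unadjusted p = 0.0206, adjusted p = 0.176). Which exon each probe reads was not analysed here, and the difference between the probes was not tested.

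Tnfaip6 encodes TSG-6, a secreted protein induced by inflammatory cytokines that moves heavy chains of inter-alpha-inhibitor onto hyaluronan. Its promoter is shown because the gene is known as an inducible one. The line gives the 250 bases before the start, RefSeq, GRCm38.p6, plus strand, chr2:52037863-52038112, with capitals as above.

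Tnfaip6: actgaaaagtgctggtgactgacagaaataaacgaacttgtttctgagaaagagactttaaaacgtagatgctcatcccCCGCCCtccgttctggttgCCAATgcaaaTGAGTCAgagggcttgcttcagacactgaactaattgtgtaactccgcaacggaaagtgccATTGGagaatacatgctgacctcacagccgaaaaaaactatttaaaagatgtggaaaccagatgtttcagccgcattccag

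The Tnfaip6 window holds 1 AP-1 match, which begins 142 bases before the start, 2 CCAAT boxes and 1 GC box. The AP-1 site is in 6.75% of all RefSeq windows, and among the 6 genes with a window it was found in Tnfaip6 alone.

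Tnfaip6 (probe A_55_P2147081) stood at -2.69, -2.49 and -2.76 in saline mice 1, 2 and 3 and at -2.56, -2.08 and -1.36 in the antithrombin mice. The saline mice lay close together, antithrombin mice 2 and 3 lay above them, and antithrombin mouse 1 lay among them. The order of the antithrombin mice was the same as for Has2, with mouse 3 the highest. The difference was 0.65 (SE 0.29, 95% interval -0.04 to 1.34, limma, adjusted p = 0.249), and 0.33 without antithrombin mouse 3.

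By likeness to Has2, which had the largest SD over the 6 arrays among the 8 hyaluronan genes, the nearest named genes were Ppm1n, Rd3, Acvrl1, H2bc6 and Taf1. Their Pearson r with Has2 over the 6 arrays lay between 0.989 and 0.999, and 328 of 15978 named genes had an r above 0.9. With 6 arrays on 1 slide that share the treatment groups, such values describe these arrays only. Acvrl1, an endothelial receptor of the TGF-beta family, had a mean level of 3.19 in saline mice and 3.92 in antithrombin mice.

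The 6 arrays lay in 2 rows of 1 slide, with saline mice 1 and 2 and antithrombin mice 1 and 2 in row 1 and mouse 3 of each group in row 2. For Has2 the difference was 1.09 within row 1 and 2.63 within row 2. For Hyal2 it was -0.44 and -0.81, for Tnfaip6 0.27 and 1.39, for Cd44 0.16 and 0.22, and for Hyal1 0.10 and 0.61. For Has1 the rows gave -0.71 and 0.62, for Has3 1.26 and -0.34, and for Cemip 0.64 and -0.70, so these 3 differences had opposite signs in the rows. With the row as a block, Has2 had an adjusted p of 0.224 and Hyal2 of 0.229 (limma).

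**Figure D3:**
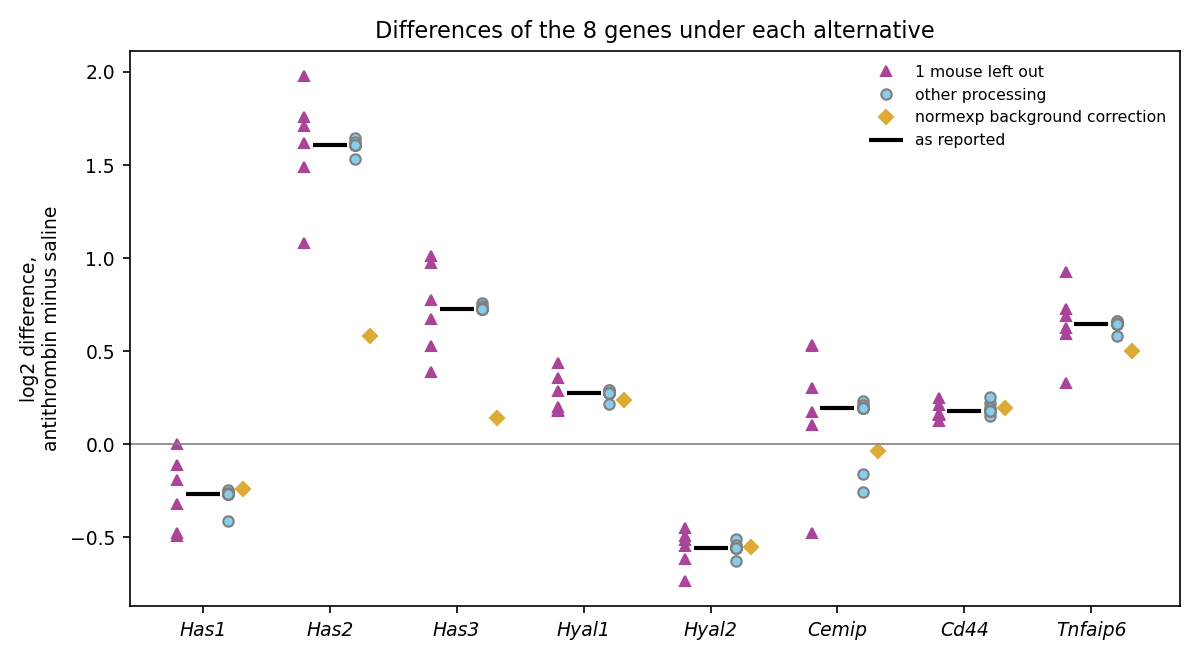
Log2 difference, antithrombin minus saline, on the y axis for each of the 8 genes on the x axis, as reported (bars), with 1 mouse left out (triangles), with normexp background correction (diamonds) and under the other settings (circles). Has2 stays above 0 and Hyal2 below 0 under all 18 alternatives, Has2 stands at 0.58 with normexp against 1.61 as reported, and Has1 and Cemip cross 0. The groups do not overlap for Has2 and Hyal2, so leaving out 1 mouse could not change their sign. Filters, probe rules, trended variance and blocks leave these differences as reported.

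Other genes of the hyaluronan pathway were taken from a list of 40 ordered by role, of which 34 were tested. At an unadjusted p under 0.05, 8 were higher and 4 lower after antithrombin (limma), and 0 passed the adjusted threshold. All genes tested had 8.73% higher and 12.9% lower at that p. The median difference of the 34 was 0.13, against -0.05 over all genes tested.

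Among the genes of precursor supply, 3 enzymes of the N-acetylglucosamine branch were higher at an unadjusted p under 0.05. Gfpt1, the rate-limiting enzyme of hexosamine synthesis, stood at 2.22, 2.29 and 2.04 in saline mice 1, 2 and 3 and at 2.56, 2.51 and 2.72 in the antithrombin mice, without overlap. It differed by 0.41 (SE 0.12, limma, adjusted p = 0.163), and its other probes gave 0.51 and 0.25. Pgm3 and Gnpnat1, the next enzymes of the branch, differed by 0.29 (SE 0.10) and 0.28 (SE 0.11), also without overlap, while another Pgm3 probe gave 0.22. Ugdh, which makes UDP-glucuronic acid, differed by -0.17 (SE 0.14), and Ugp2, which makes UDP-glucose, by -0.01 (SE 0.11). Uap1, the last enzyme of the N-acetylglucosamine branch, differed by -0.11 (SE 0.11), also without overlap but with the antithrombin mice below. Gfpt2 differed by -0.09 (SE 0.20). Groups without overlap made up 10.7% of all genes tested with antithrombin above and 18.1% with antithrombin below. In all, 3 of the 7 supply genes were higher at an unadjusted p under 0.05 and 0 were lower. The shares over all genes tested were 8.73% and 12.9%. By sign, 3 of the supply differences were positive and 4 negative.

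Among the receptors the 2 lower genes were Lyve1 and Layn. Lyve1, the hyaluronan receptor of lymphatic endothelium and some tissue macrophages, stood at 6.11, 5.09 and 6.27 in saline mice 1, 2 and 3 and at 5.11, 4.83 and 4.70 in the antithrombin mice. Saline mouse 2 lay among the antithrombin mice, and the other saline mice lay above them. The difference was -0.95 (SE 0.31, 1.93-fold lower, limma, adjusted p = 0.179). Layn, the receptor layilin, differed by -0.48 (SE 0.16) without overlap, and by -0.32 with normexp correction. Of all genes tested, 18.1% had no overlap with antithrombin below.

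Hmmr, which binds hyaluronan and serves the mitotic spindle, was higher by 0.31 (SE 0.11), with 0.52 and 0.68 at its other probes and 0.50 for the mean of the 3. The scavenger receptors Stab1 and Stab2 differed by 0.24 (SE 0.21) and 0.02 (SE 0.17), but another Stab2 probe gave 0.92 (SE 0.29). The receptors Tlr2 and Tlr4, through which hyaluronan fragments are known to signal, differed by 0.23 (SE 0.19) and 0.20 (SE 0.11), and another Tlr4 probe gave -0.17. Of the 7 receptors, 1 was higher and 2 were lower at an unadjusted p under 0.05, against 8.73% and 12.9% of all genes tested.

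Ptx3, a pattern recognition protein that joins TSG-6 and inter-alpha-inhibitor in hyaluronan matrices, stood at -3.93, -3.04 and -3.74 in saline mice 1, 2 and 3. It stood at -2.90, -2.07 and -2.63 in the antithrombin mice. The groups did not overlap, with antithrombin above, as in 10.7% of all genes tested. The difference was 1.04 (SE 0.30, 2.05-fold, limma, adjusted p = 0.161), and 0.58 with normexp correction. The other 6 genes of that role, the heavy chains Itih1 to Itih5 and the light chain gene Ambp, had intervals that include 0.

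Of the hyaluronan-binding proteoglycans and link proteins, 2 were higher and 2 lower among 7 tested at an unadjusted p under 0.05 (limma). The shares over all genes tested were 8.73% and 12.9%. Vcan, the gene of versican, a large matrix proteoglycan, was higher by 0.70 (SE 0.23, limma, adjusted p = 0.181), and its other probes gave 0.55 and 0.43. Saline mouse 2 stood at 1.11 for Vcan, within the antithrombin range of 1.08 to 1.54, and saline mice 1 and 3 stood at 0.29 and 0.53. Ncan, the gene of neurocan, was dim and higher by 1.07 (SE 0.28), being well above background on 5 of 6 arrays, and with normexp correction the difference was 0.17 (limma, unadjusted p = 0.169). Habp4 differed by -0.40 (SE 0.12), and by -0.38 at another probe. Hapln1, a link protein gene named here after its values were seen, differed by -1.53 (SE 0.54) and was well above background on 4 of 6 arrays. The arrays where it was not were those of antithrombin mice 2 and 3, so it passed the filter through the saline mice. The Hapln1 difference was -0.37 with normexp correction and -0.93 without antithrombin mouse 3.

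Hexa, a lysosomal exoglycosidase, was higher by 0.51 (SE 0.21), the 1 gene of 6 tested in its role at an unadjusted p under 0.05. Over all genes tested 8.73% were higher at that p. Gusb, which acts beside it on hyaluronan fragments, differed by 0.18 (SE 0.21). Cemip2, described as a cell-surface hyaluronidase gene, differed by 0.04 (SE 0.11).

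**Figure D4:**
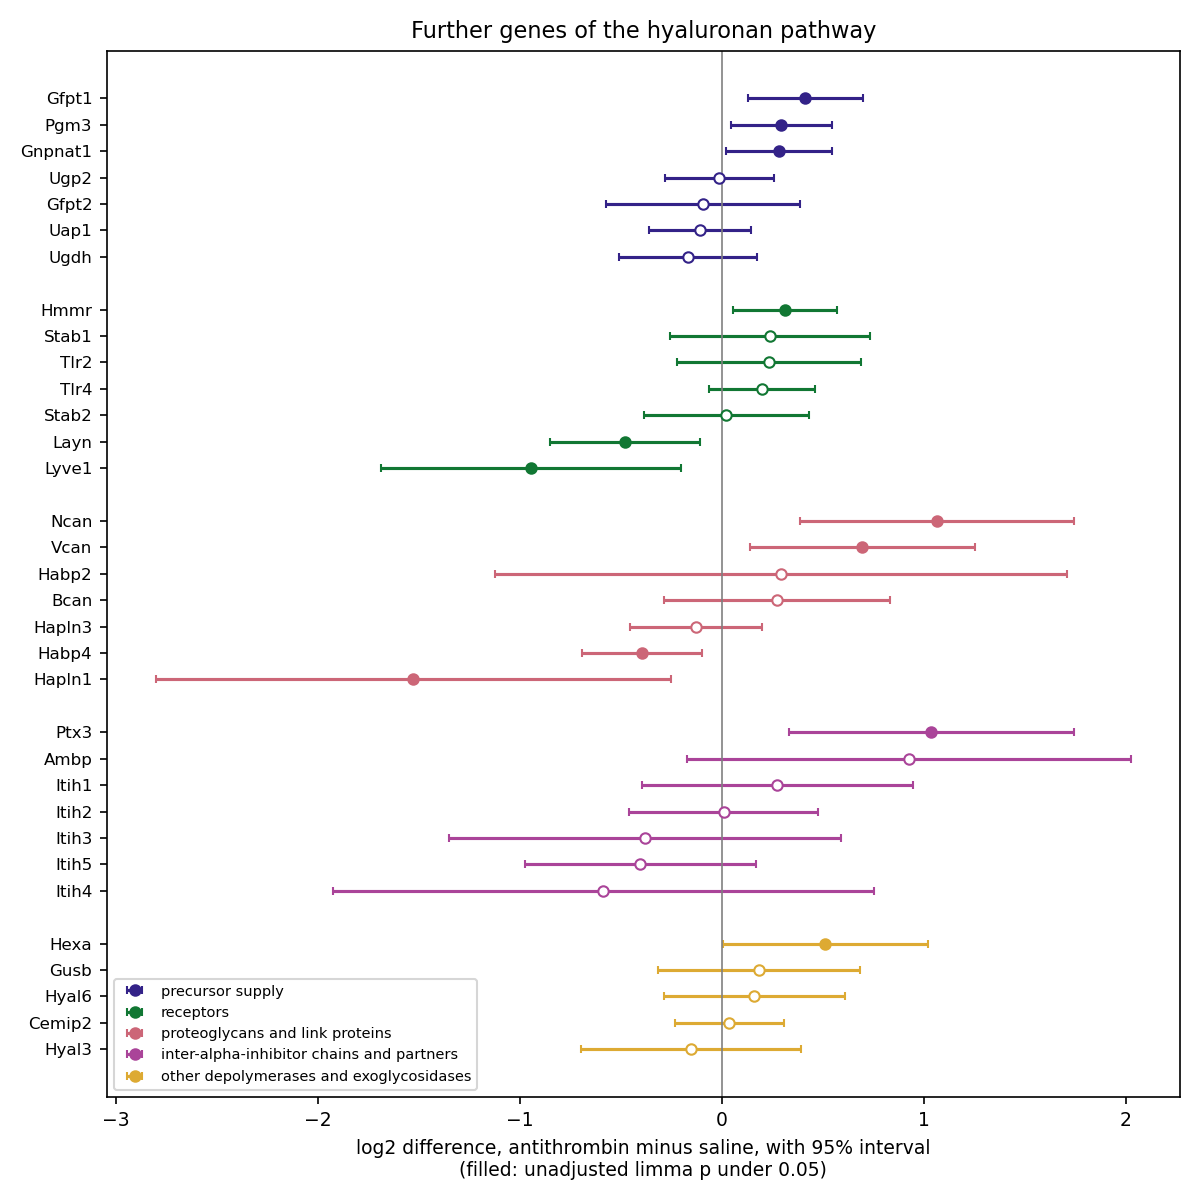
Log2 difference, antithrombin minus saline, with 95% intervals on the x axis for 33 of the 34 tested pathway genes, grouped and coloured by role. Filled points have an unadjusted limma p under 0.05, 8 above 0 and 4 below, and 0 of the 34 pass the adjustment.

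Saline mouse 2 was the saline mouse nearest to the mean of the antithrombin mice for Has2, Hyal2, Tnfaip6, Lyve1, Ptx3 and Vcan. It was also the nearest for Gfpt1, Hexa, Habp4, Ncan and Hapln1. It was the farthest for Has3, Cemip, Cd44, Pgm3 and Gnpnat1, and another saline mouse was nearest for Has1, Hyal1, Layn and Hmmr. On the first principal component over all genes tested saline mouse 2 was the nearest, at 7.86. Saline mice 1 and 3 stood there at -48.3 and -62.4, and the antithrombin mice between 24.9 and 49.5. Without it, 4 pathway genes passed the adjusted threshold as higher, Vcan, Ptx3, Hexa and Ambp (limma, adjusted p = 0.0346, 0.0374, 0.0408 and 0.0418), and 1 as lower, Lyve1 (limma, adjusted p = 0.0239), where 11% of all genes tested passed. Saline mouse 2 was the saline array nearest to the antithrombin arrays on the first principal component, so leaving it out widens that gap by itself.

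Markers of other cells were compared as well, and 0 in any list passed the adjusted threshold (limma). Their counts at an unadjusted p under 0.05 are read against the 8.73% of all genes tested that were higher and the 12.9% that were lower. The scores of the monocyte, mesothelial, T cell and alveolar macrophage lists overlapped between the groups. Counts of 1 in a list are near those shares. Of 6 smooth muscle and pericyte markers, 4 were higher at an unadjusted p under 0.05, with scores (mean log2 level less the saline mean) from -0.07 to 0.06 in saline and 0.42 to 0.57 in antithrombin mice. Of 10 neutrophil markers 4 were higher, with scores of -0.20 to 0.35 against 0.50 to 0.60. Of 6 monocyte markers, which include Vcan, 3 were higher, with scores of -0.28 to 0.42 against 0.36 to 0.77. Of 9 fibroblast markers 1 was higher, with scores of -0.17 to 0.15 against 0.16 to 0.26. Of 6 mesothelial markers tested 1 was lower, with scores of -0.15 to 0.22 against -0.46 to -0.11.

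Of the 5 lymphatic markers, Lyve1 was the 1 lower at that p, and Prox1, Flt4, Mmrn1 and Pdpn differed by -0.16, 0.06, -0.31 and -0.22. The lymphatic scores, Lyve1 included, were -0.14 to 0.12 in saline and -0.46 to -0.21 in antithrombin mice. All 7 lung epithelial markers, among them the surfactant gene Sftpc, passed the filter on dim probes. Their differences were all negative, 1 of 7 at an unadjusted p under 0.05 (Hopx, -0.52, limma, unadjusted p = 0.00367, adjusted p = 0.153), with scores of -0.05 to 0.07 against -0.26 to -0.12. Of 5 T cell markers tested 0 passed at an unadjusted p under 0.05 (limma; 0 adjusted), with scores of -0.26 to 0.40 against -0.31 to 0.07. Of 7 alveolar macrophage markers 1 was higher, with scores of -0.17 to 0.16 against -0.24 to 0.27. In whole lung, fewer cells of a type and less RNA per cell cannot be told apart. The part of these cells in the differences of Has2, Hyal2 and the pathway genes was not tested.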

How the data were processed

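Agilent one-colour arrays of lung RNA from 6 mice were analysed, 3 saline and 3 antithrombin by sample title. The scanner files as deposited give an intensity for each spot, measured with Agilent Feature Extraction 10.7.3.1 per the file headers, against 9.1 in the submitters' processing notes. The processed signal is background-subtracted and not scaled between arrays. A value table, also deposited, holds log2 values. Against the scanner files 100% of its values matched within 0.01 once a probe constant and an array shift were removed, so that match does not show its scaling and centring. The Has2 difference from it was 1.6069, against 1.6062 as reported and 1.6241 with median scaling. As an alternative it thus nearly repeats the scaling used here. Its column medians ran from -0.0372 to 0.0770.

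Control spots and spots with outlier marks were left out, spots of a probe were averaged, and log2 values were centred on the 75th percentile of each array. Of 56605 probes 32994 were named through RefSeq transcripts of GRCm38.p6. The array design names another build, so probes carry no coordinates here, and those of the printed promoters are RefSeq's on GRCm38.p6. Genes well above background on at least 3 arrays were fitted in limma 3.58.1 (R 4.3.3; lmFit, eBayes) and p-values, two-sided, were adjusted by Benjamini-Hochberg across the 32456, of which 17516 had symbols. The fit was run on simulated data with independent noise for each gene, so that run does not cover variation shared between genes. Figures used matplotlib 3.10.9. The number of arrays limits the precision.

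The members and lists were chosen with earlier results of these data known. All 8 members are named. Of the pathway list, up to 3 genes per role with an unadjusted p under 0.05 are named by rule, with others given to complete their role, and 1 gene of that list is not reported here. The 5 genes most like the most variable member are also named. Alternatives were normexp, quantile and median scaling, other filters and probe rules, the value table, trended variance, array weights, blocks and leaving out each mouse.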

Additional observations from a re-analysis of the deposited data

How the results depend on the processing

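Over 18 alternatives, Has2 ran from 0.58 to 1.98 and Hyal2 from -0.73 to -0.45, with an unadjusted p under 0.05 in all 18 (limma), an adjusted p of 0.057 to 0.352 for Has2 and an adjusted p under 0.05 for Hyal2 in 2, array weights (0.0443) and without saline mouse 2. For Has2 and Hyal2 the groups did not overlap, so leaving out 1 mouse could not change the sign. The filters, probe rules, trended variance and blocks left both differences as reported. Cd44, Has3, Hyal1 and Tnfaip6 kept their sign in all 18. Cemip turned to -0.0381 with normexp, -0.25 with the mean of its probes and -0.16 with array weights, and ran from -0.48 to 0.53 with 1 mouse left out. Has1 ran from -0.49 to 0.0038 with 1 mouse left out. The number of the 8 genes past the adjusted threshold was 1 with array weights and 0 to 1 with 1 mouse left out, and the number at an unadjusted p under 0.05 was 2 to 4 with 1 mouse left out. The count over all genes, 2 as reported, was 2573 with array weights, 0 with the mouse number as a block, 0 to 3538 with 1 mouse left out, and 1 with normexp, quantile or median scaling, no filter, the filter on all 6 arrays, single probes, trended variance or the slide row as a block. The further pathway genes at an unadjusted p under 0.05, 12 as reported, numbered 7 with the mouse number as a replicate block and 6 to 15 with 1 mouse left out. Over all genes tested 21.6% were at that p as reported and 15.6% with that block. With 1 mouse left out the share ran from 13.1% to 32%. It was 32% where 15 pathway genes were counted, and 15.8% where 4 of the 8 genes were. With array weights 3 of the further pathway genes passed the adjusted threshold, Lyve1 (limma, adjusted p = 0.0417), Ptx3 (0.0442) and Ncan (0.045), where 7.93% of all genes tested passed. The sample titles do not say that mouse numbers pair the samples. The deviations of mice 1, 2 and 3 from their group means correlated at -0.01, -0.16 and -0.28 across genes. No saline mouse correlated best with its own number. Deviations from a mean of 3 mice offset one another, so these correlations cannot show whether the numbers pair the mice. Normexp was run on median spot signals, the ones listed in the scanner files used here, and not on mean signals. The causes of these changes were not tested. Of the 18 alternatives, normexp gave the lowest Has2 (0.58) and Has3 (0.14) differences, both from dim probes.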
